A study of Homo sapiens with 2 samples.

Results

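Nuclear-encoded subunits of the respiratory chain and of ATP synthase were described in H2228 cells, a human lung adenocarcinoma line that carries the EML4-ALK fusion, with and without interleukin 4 (IL4). Members were chosen by gene symbol: names starting with NDUFA, NDUFB, NDUFC, NDUFS or NDUFV (complex I), the succinate dehydrogenase genes (complex II), UQCR and CYC1 (complex III), COX4 to COX8 (complex IV) and ATP5 (complex V), without the NDUFAF assembly factors and without pseudogenes. This gave 78 of the 19775 genes measured: 33 of complex I, 3 of complex II, 7 of complex III, 17 of complex IV and 18 of complex V. One member, ATP5IF1, is an inhibitor of ATP synthase and not a subunit.

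One sample was H2228 cells given IL4 at 100 ng/mL for 30 min, and the other was H2228 cells without treatment. Each condition was measured on 1 Affymetrix Human Genome U133 Plus 2.0 array, so no replicate check and no test were possible, and the spread between cultures is unknown. The protocol text attached to both samples also mentions transfection with EML4-ALK plasmids, siRNAs or negative controls for 48 h, and whether the cells of these 2 arrays were transfected is not given in the sources used here. The cell line and the conditions come from the labels. Of the 9 epithelial markers measured, EPCAM had 11.62 with IL4 and 11.80 in untreated cells on the log2 scale, KRT19 had 11.84 and 11.74, and KRT7, KRT8, KRT18 and CDH1 were also above 10 on both arrays. The lung markers were less bright: NKX2-1 had 6.91 with IL4 and 7.88 without, NAPSA had 6.61 and 6.29, and SFTPB had 6.13 and 6.31. NKX2-1 (-0.97) and CDH1 (0.75) differed between the arrays by more than any member. The 4 leukocyte markers measured lay between 2.37 (PTPRC) and 5.59 (CD3E) with IL4, and between 2.50 and 5.56 in untreated cells. Of 5 fibroblast markers, COL1A1 was bright, with 11.23 with IL4 and 10.82 without, and the others lay between 3.67 and 5.12. The part of these values in the results was not tested.

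The respiratory chain lies in the inner mitochondrial membrane. Complexes I and II pass electrons from NADH and succinate to ubiquinone, complex III hands them to cytochrome c, and complex IV (cytochrome c oxidase) gives them to oxygen. Complexes I, III and IV pump protons while doing so, and complex V (ATP synthase) lets the protons back and makes ATP. Most subunits are encoded in the nucleus, made in the cytosol and imported, and a small set is encoded by mitochondrial DNA. Nuclear subunit genes are known targets of the transcription factors NRF1, GABP (an ETS factor whose DNA-binding chain is encoded by GABPA) and YY1.

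Promoters of 4 members, 1 each from complexes I, III, IV and V, are shown because they carry the letters those factors are known to bind. Each line gives the 150 bases before the gene's start, read along the gene's own strand, from RefSeq on GRCh38.p14, and no annotated gene overlaps any of these stretches. Capitals mark GCATGCGC (the NRF1 letters) and CCGGAAG (the ETS letters) or their reverse complements, and the NRF1 letters can overlap their own reverse complement. NDUFB7 lies at chr19:14572067-14572216 on the minus strand, UQCR11 at chr19:1605463-1605612 on the minus strand, COX5B at chr2:97645912-97646061 on the plus strand and ATP5F1C at chr10:7788027-7788176 on the plus strand.
NDUFB7: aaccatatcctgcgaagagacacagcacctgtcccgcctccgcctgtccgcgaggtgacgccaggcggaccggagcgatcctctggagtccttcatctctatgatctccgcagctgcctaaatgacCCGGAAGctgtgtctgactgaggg
UQCR11: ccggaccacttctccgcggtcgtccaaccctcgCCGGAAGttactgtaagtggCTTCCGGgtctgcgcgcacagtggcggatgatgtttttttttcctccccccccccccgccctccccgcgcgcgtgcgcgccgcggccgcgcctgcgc
COX5B: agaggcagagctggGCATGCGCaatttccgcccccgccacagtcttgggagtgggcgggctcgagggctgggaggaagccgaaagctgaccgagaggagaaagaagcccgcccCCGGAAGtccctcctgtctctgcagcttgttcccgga
ATP5F1C: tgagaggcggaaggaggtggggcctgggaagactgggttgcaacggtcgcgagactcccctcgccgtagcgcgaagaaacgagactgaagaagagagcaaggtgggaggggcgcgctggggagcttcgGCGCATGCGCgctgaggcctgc
NDUFB7, an accessory subunit of the membrane arm of complex I, held ETS letters that began 24 bases upstream of its start. UQCR11, a small subunit of complex III, had them at 117 bases and reversed at 97 bases. COX5B, a subunit of cytochrome c oxidase, had NRF1 letters at 136 and ETS letters at 37 bases. ATP5F1C, the gamma subunit of ATP synthase, had NRF1 letters on both strands, overlapping, at 22 and 20 bases. With IL4, these genes were lower by 0.23, 0.20, 0.14 and 0.19 on the log2 scale.

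Over the 250 bases before the start, 66 of the 78 members were found in the RefSeq promoter table. The NRF1 letters occurred on either strand in 11 of the 66 (16.7%), against 3.70% of 15843 protein-coding promoters and 4.72% of the 1123 promoters of genes with a mean log2 value of 10 or more. The ETS letters occurred in 15 (22.7%), against 11.8% and 17.1%. The YY1 letters, AAGATGGC, occurred in 1 member, ATP5PF (1.52%), against 1.39% and 2.58%. At least 1 motif was present in 22 members (33.3%), against 15.8% and 22.3%, and in 0 of the 4 matched promoters of tissue-specific isoforms. NDUFA5, the member with the largest difference between the arrays, had none of the 3 motifs in this window. A match is a description of the letters and not a binding site. The median difference, IL4 minus untreated, was -0.17 over the members with a motif and -0.13 over those without.

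All values are log2 RMA values, 1 per probe set and array, and a difference is the IL4 value minus the untreated value. A gene with several probe sets was represented by the one with the highest mean. Of the 78 members, 70 were lower with IL4 (89.7%), 7 were higher and 1, ATP5MF, was equal. The background was 48.1% of all genes lower. In RNA of a whole culture, less RNA per cell and fewer cells that express a gene cannot be told apart. The median difference of the members was -0.14, which is 1.10-fold lower, against a median of 0 over all genes. The shift was small in each gene: 6 members were at least 1.2-fold lower, with a background of 17.6%, and 1 was at least 1.2-fold higher, with a background of 13.7%. No member reached 1.5-fold, the level the study states for this comparison, which 4.39% of all genes passed downwards and 3.21% upwards. After a loess correction of the difference on the mean level, 61 of 78 members were lower and the median was -0.07.

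Most members are bright on the array, and bright genes as a whole were lower with IL4. The members had a median of 10.53 with IL4 and 10.69 in untreated cells. Among the 1333 genes with a mean of 10 or more, 64.1% were lower, and 51 of 51 members of that level were lower. The level of 10 was chosen after seeing the data, and below it some members were not lower. Their differences lay between -0.29 and -0.02 with a median of -0.15, against a median of -0.07 over all genes of that level. Their spread was narrow: the standard deviation of the difference was 0.064 across these members and 0.36 across the 1333 genes. At the 1.2-fold level, 3 of the 51 were lower and 0 higher, with backgrounds of 16.1% and 11.7%. With the loess correction, 46 of the 51 members were lower, with a median of -0.09, against 50.9% of all genes of that level.

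**Figure D1:**
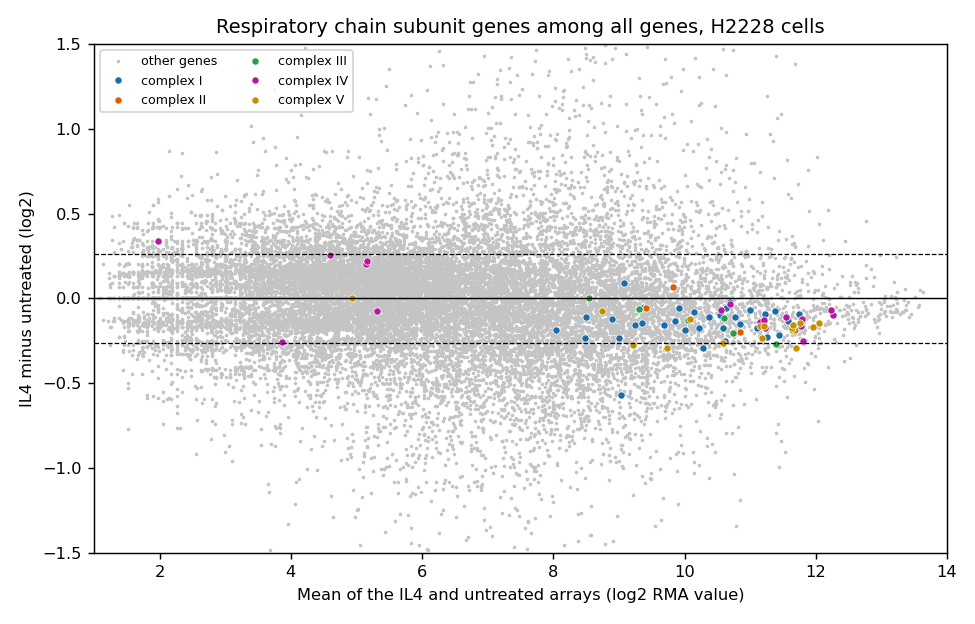
Difference between the arrays (IL4 minus untreated, log2) against the mean of both arrays (log2 RMA value) for every gene, with members coloured by complex. Dashed lines mark 1.2-fold, genes with differences beyond the axis of 1.5 are left out of view, and members with a mean of 10 or more all lie below 0, between -0.29 and -0.02.

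Narrower ranges of brightness gave a like picture above 8 and not below 6. The ranges between 10 and 12 hold members already counted above. Between 11 and 12, 28 of 28 members were lower with a median of -0.16 and a standard deviation of 0.055, against 63.4% of 372 genes, with a median of -0.08 and a standard deviation of 0.31. Between 10 and 11, 20 of 20 members were lower with a median of -0.12, against 62.8% of 796 genes. Between 9 and 10, 12 of 14 members were lower, against 60.5% of 1423 genes. Between 8 and 9 it was 5 of 6, against 57.9% of 2051 genes, and above 12 it was 3 of 3, against 71.5% of 165. Between 4 and 6, 1 of 5 members was lower with a median of 0.20, against 40.8% of 6146 genes. Below 4 it was 1 of 2, against 38.5% of 3765. Of the spike controls, which are bacterial genes, the 18 hybridization spike probe sets had a median difference of 0.05 and lay between -0.04 and 0.15. The 27 labelling spike probe sets had a median of 0 and lay between -0.18 and 0.31, a range that holds the median of the members. Of the control probe sets for human genes, both of beta-actin were higher with IL4 (0.24 and 0.55) and both of GAPDH lower (-0.07 and -0.05). The 3' minus 5' value of the beta-actin control differed by -0.30 between IL4 and untreated arrays and that of GAPDH by -0.02. The part of these values in the result was not tested.

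**Figure D2:**
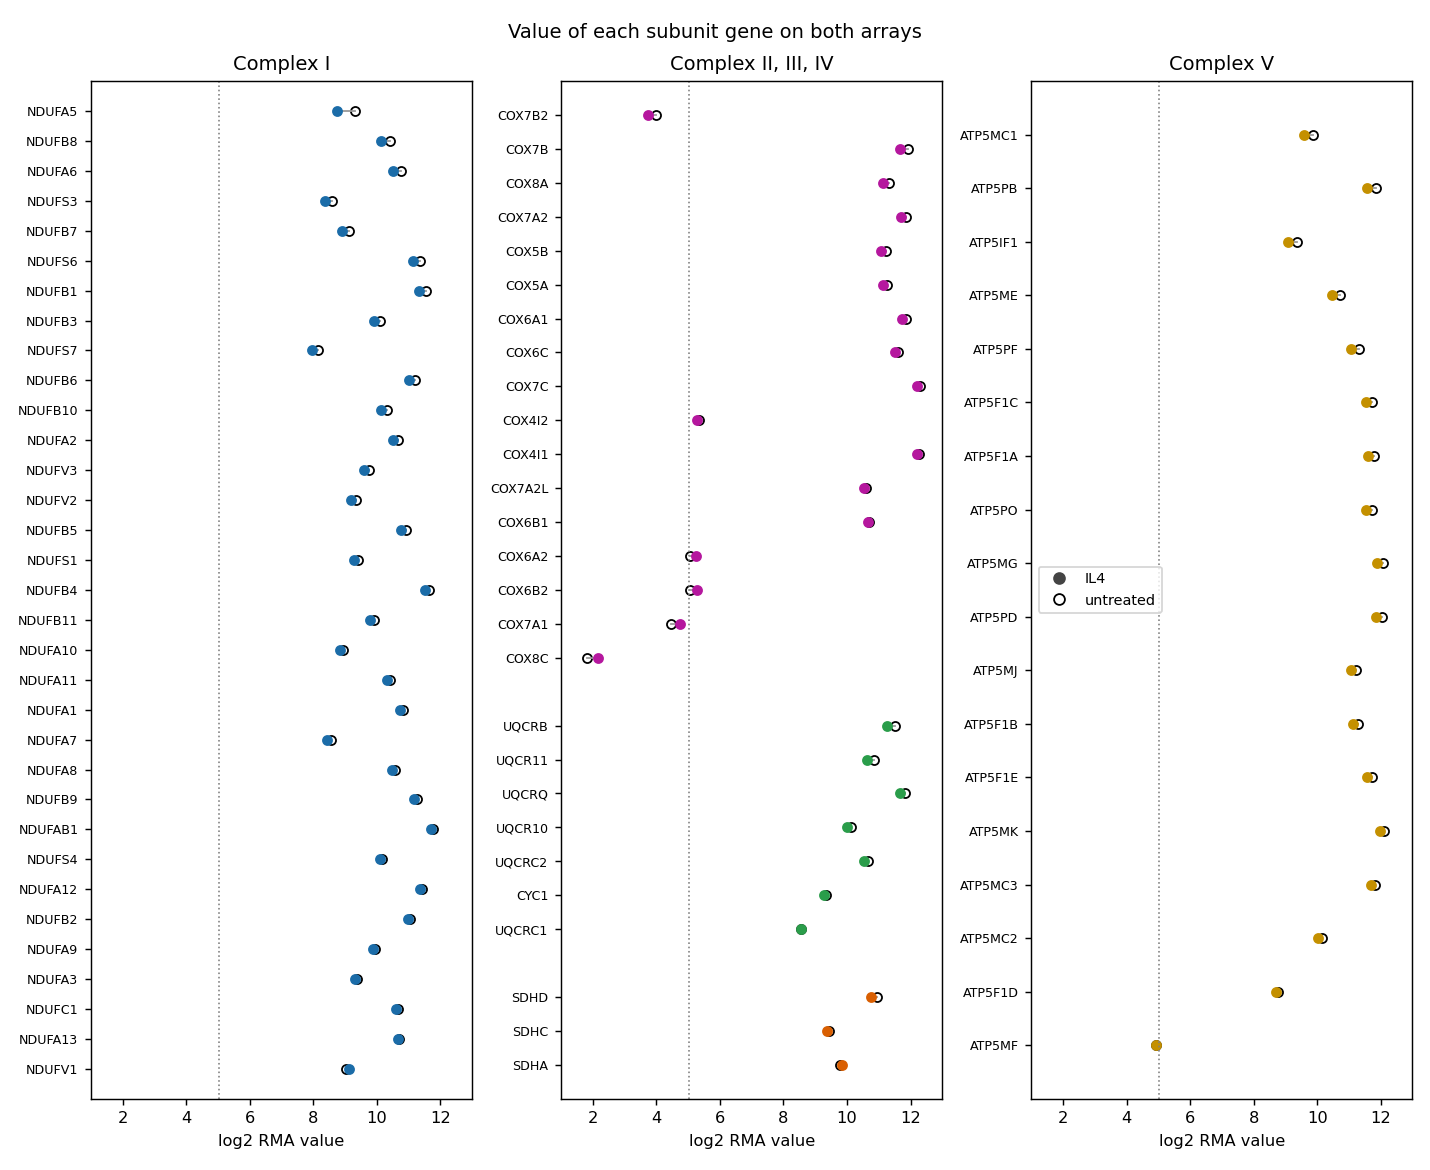
Values of all 78 members (log2 RMA value) on the IL4 array (filled) and the untreated array (open), with complex I on the left, complexes IV, III and II from top to bottom in the middle and complex V on the right. Within a complex, genes run from the lowest difference at the top to the highest at the bottom, and the dotted line marks the median of all probe sets, 5.03.

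Complex I, NADH dehydrogenase, had 32 of 33 members lower with IL4, with a median difference of -0.13 and a range of -0.57 to 0.09. Its matrix arm is built of an N module, which oxidizes NADH, and a Q module, which reduces ubiquinone, and its membrane arm is the P module, which pumps protons. The median was -0.15 in the N module (9 of 10 lower), -0.21 in the Q module (4 of 4) and -0.13 in the P module (18 of 18). The acyl carrier protein NDUFAB1, which serves both the N and the P part, had 11.69 with IL4 and 11.78 in untreated cells.

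NDUFA5, an accessory subunit of the Q module, had 8.75 with IL4 and 9.32 in untreated cells, a difference of -0.57, or 1.48-fold lower. This was the largest difference of all members in either direction. Its other probe set was dim, with 1.59 and 1.74. NDUFB8, an accessory subunit of the membrane arm that is often used as a marker of assembled complex I, had 10.14 with IL4 and 10.43 in untreated cells, a difference of -0.29. On its second probe set, with 9.57 and 9.69, the difference was -0.12. NDUFA6, an accessory subunit of the LYR family, had 10.50 with IL4 and 10.75 without, a difference of -0.25. On its second probe set, with 7.17 and 7.19, the difference was -0.02. NDUFB7, with ETS letters near its start, had 8.89 with IL4 and 9.12 without. All 28 accessory subunits measured were lower, and the smallest difference among them was that of NDUFA13 (GRIM-19, a protein also known to bind STAT3), with 10.68 with IL4 and 10.70 in untreated cells.

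The core subunits of complex I include those that carry the flavin and the iron-sulfur clusters. The iron-sulfur subunit NDUFS1 had 9.28 with IL4 and 9.42 in untreated cells, and NDUFV2, which holds another cluster, had 9.18 and 9.33. In the Q module, NDUFS3 had 8.37 with IL4 and 8.60 without, and NDUFS7 had 7.96 and 8.14. These 4 core subunits differed by -0.23 to -0.14. NDUFV1, which holds the flavin that takes electrons from NADH, was the exception in complex I: it had 9.13 with IL4 and 9.04 in untreated cells, a difference of 0.09, and its second probe set also was higher, with 5.83 and 5.68.

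Complex II is succinate dehydrogenase, the enzyme shared by the respiratory chain and the tricarboxylic acid cycle, and 3 of its genes were members. SDHA, the flavoprotein that oxidizes succinate, had 9.86 with IL4 and 9.79 in untreated cells, a difference of 0.07. Its membrane anchors were lower: SDHC had 9.38 with IL4 and 9.44 without, and SDHD had 10.74 and 10.94. The median of the 3 was -0.06, and it was 0.02 after the loess correction, which turned the sign of SDHC. SDHB, its iron-sulfur subunit, was not analysed here.

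Complex III, ubiquinol-cytochrome c reductase, had 6 of 7 members lower, with a median of -0.13. UQCRB, a small subunit at the ubiquinone site, had 11.25 with IL4 and 11.52 in untreated cells, a difference of -0.27. The small subunits UQCR11 (10.64 and 10.84), UQCRQ (11.68 and 11.83) and UQCR10 (9.99 and 10.12) were lower with IL4 by 0.20, 0.15 and 0.13. On the second probe set of UQCR11, with 6.27 and 6.30, the difference was -0.03. CYC1, the heme protein cytochrome c1, had 9.27 with IL4 and 9.33 without, a difference of -0.06 that became 0.02 after the loess correction. The large matrix-side proteins differed: UQCRC2 had 10.54 with IL4 and 10.66 without, while UQCRC1 had 8.55 on both arrays.

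Complex IV holds subunits used in most tissues and isoforms known from muscle, testis or lung. Of its 17 members, 13 were lower and 4 higher, with a median of -0.10. The 11 subunits of the first kind were all lower, with a median of -0.12 and a range of -0.25 to -0.03. COX7B had 11.68 with IL4 and 11.93 in untreated cells, the largest of these differences. COX8A had 11.15 with IL4 and 11.32 without, COX7A2 had 11.70 and 11.86, and COX5B, whose promoter is printed above, had 11.08 and 11.22. COX4I1, which takes part in the control of the enzyme by ATP, had 12.20 with IL4 and 12.27 without, and COX6B1, which faces the intermembrane space, had 10.67 and 10.71. COX6A1 had 11.73 with IL4 and 11.85 without, COX5A had 11.14 and 11.27, and COX7A2L, known for joining complexes into supercomplexes, had 10.52 and 10.59.

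The 6 tissue isoforms were dim on both arrays, between 1.81 and 5.35, and ran in both directions. COX6A2 and COX7A1, the muscle isoforms, had 5.25 and 4.73 with IL4 and 5.05 and 4.47 in untreated cells. COX6B2 had 5.27 with IL4 and 5.05 without, and COX8C had 2.15 and 1.81, which made it the single member at least 1.2-fold higher. COX7B2 had 3.73 with IL4 and 3.99 without, and COX4I2, known from lung, had 5.27 and 5.35. The 4 muscle markers measured were dim too, between 3.89 and 5.70: CKM had 4.31 with IL4 and 3.89 without, and MYH7 had 4.40 and 4.59. Of the 4 members below the median level of all probe sets, 3 were such isoforms, and the fourth was ATP5MF.

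**Figure D3:**
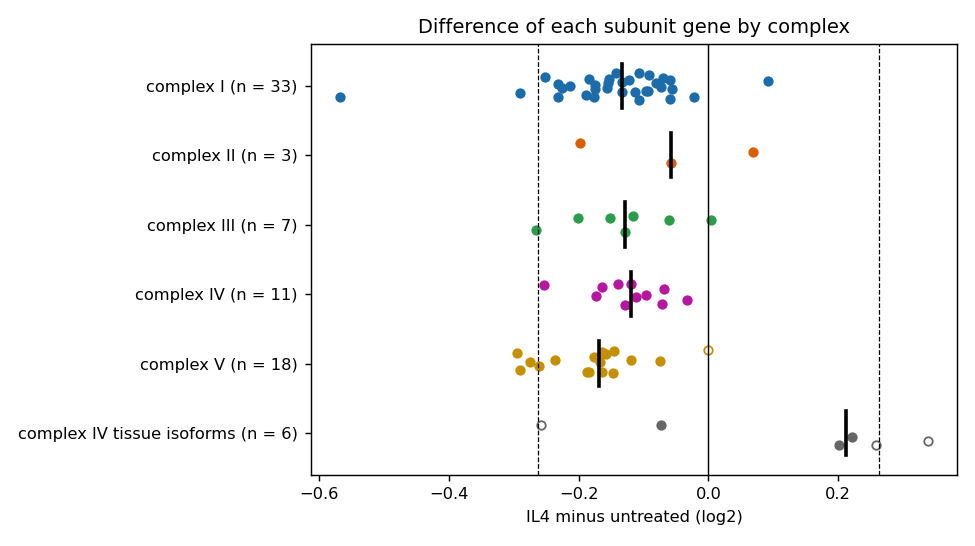
Difference (IL4 minus untreated, log2) of each member by complex, 1 point per gene, with tissue isoforms of complex IV in a row of their own. Thick bars are medians, dashed lines mark 1.2-fold, open points have a mean below the median of all probe sets, and the medians of complexes I to V lie between -0.17 and -0.06, that of the isoforms at 0.21.

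Complex V had the median farthest from 0 of the 5 complexes, -0.17, with 17 of 18 members lower. It consists of the catalytic F1 head, the rotating c-ring, a stalk that holds the head in place and further membrane subunits. The F1 subunits ATP5F1A (alpha, 11.60 with IL4 and 11.78 without), ATP5F1B (beta, 11.12 and 11.29) and ATP5F1C (gamma, 11.54 and 11.73) differed by -0.18, -0.16 and -0.19. These form the catalytic ring and the shaft that turns inside it. ATP5F1E (epsilon) had 11.57 with IL4 and 11.73 without, and ATP5F1D (delta) had 8.71 and 8.78, a difference of -0.08 that was 0.00 after the loess correction.

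The stalk had a median of -0.21 and 4 of 4 genes lower. ATP5PB (subunit b) had 11.56 with IL4 and 11.85 in untreated cells, a difference of -0.29. ATP5PF, the stalk gene whose promoter held all 3 motifs, had 11.07 and 11.31, a difference of -0.24. ATP5PO, which ties the stalk to the head, had 11.55 with IL4 and 11.72 without, and ATP5PD had 11.87 and 12.03. The 3 genes of the c-ring encode the same mature protein: ATP5MC1 had 9.59 with IL4 and 9.88 without (-0.29), ATP5MC2 had 10.03 and 10.15 (-0.12), and ATP5MC3 had 11.69 and 11.83 (-0.15). ATP5ME, a membrane subunit, had 10.45 with IL4 and 10.72 without, a difference of -0.26. ATP5IF1, which blocks ATP hydrolysis when the membrane potential is lost, had 9.08 and 9.36, a difference of -0.28.

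ATP5MF had 4.93 on both arrays on a dim probe set. Its bright probe set, with 10.41 with IL4 and 10.59 in untreated cells, is also assigned to an antisense gene (ARMC2-AS1) and was not used for the gene. Genes that were measured only by probe sets shared with another gene were NDUFS5, NDUFS8, NDUFC2, UQCRH and UQCRHL, and UQCRFS1 was not analysed here. The bright probe set shared by UQCRH and UQCRHL had 11.15 with IL4 and 11.31 without, and that shared by NDUFS5 and RPL10 had 11.72 and 11.79. NDUFS8, an iron-sulfur subunit of complex I whose probe sets are shared with microRNA genes, had 9.40 with IL4 and 9.63 without on the brightest of them.

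Probe sets of the same gene gave the only repeat measurement in these data. They share the RNA of the array, so they say nothing of another culture. A second probe set at or above the median level was present for 31 members, and both were lower with IL4 in 25, against 2535 of 6056 genes. The standard deviation of the difference between the first and the second probe set was 0.13 over the members and 0.25 over all such genes, and the medians of the members were -0.15 and -0.13. Thus the size of the members' median difference was close to this spread, which was taken across the 31 members, while the sign was shared by most.

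The probe sets that did not follow were few and mostly dim. The second probe set of NDUFV3, a small flavoprotein subunit, had 6.65 with IL4 and 6.47 in untreated cells (0.18), against 9.61 and 9.77 on the first. That of UQCR10 had 6.27 with IL4 and 6.20 without (0.07), that of NDUFA10 differed by 0.03, and those of COX5A and NDUFA7 were equal on both arrays. Of all 126 member probe sets at or above the median level, 110 were lower, 13 were higher and 3 were equal, against 12043 lower of 23263 probe sets. At least 1.5-fold lower were 2 of the 126, both dim, against 1265 of the 23263: one of UQCRC2, with 5.06 with IL4 and 5.81 without, and one of ATP5F1C, with 4.75 and 5.34.

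The subunits encoded by mitochondrial DNA join the nuclear ones in complexes I, III, IV and V. Only a part of them was measured, with none from complex III, and those measured did not share the shift. Of 7 measured, 3 were lower with IL4, and the median was 0.01. The 5 with a mean of 10 or more differed by -0.02 to 0.05. COX1, the catalytic subunit of complex IV, had 13.22 with IL4 and 13.21 in untreated cells, COX2 had 13.61 and 13.56, ND4 had 13.22 and 13.23, and ATP6 had 13.03 and 13.05. These values are near the top of the array's range, and no nuclear member was that bright. The 3 nuclear members with a mean above 12 were lower with a median of -0.10. Their means reached at most 12.26, and those of the 5 mitochondrial genes began at 12.64. The 2 less bright ones went apart, with a difference of -0.38 for COX3, at 7.996 with IL4 and 8.38 without, and of 0.29 for ND6, at 9.48 and 9.18.

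Other large complexes were set beside the members at a mean of 10 or more, a level chosen after seeing the data. Of all genes of that level, 64.1% were lower. The cytosolic ribosome was lower in 47 of 50 genes with a median of -0.08 and a standard deviation of 0.050. The proteasome was lower in 18 of 23 with a median of -0.07, and the mitochondrial ribosome in 10 of 17 with a median of -0.11. Thus a shared sign was also present in the cytosolic ribosome, at a median difference nearer to 0. The largest proteasome differences were those of PSMA4 (11.24 with IL4 and 11.55 without) and PSMC6 (11.08 and 11.38), and of the cytosolic ribosome those of RPS25 (11.93 and 12.17) and RPS12 (12.31 and 12.52). Over all levels, the mitochondrial ribosome had 65 of 76 genes lower and a median of -0.19, with 18 at least 1.2-fold lower. The backgrounds over all genes were 48.1% and 17.6%. MRPL19, a protein of its large subunit, had 8.43 with IL4 and 9.02 without.

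**Figure D4:**
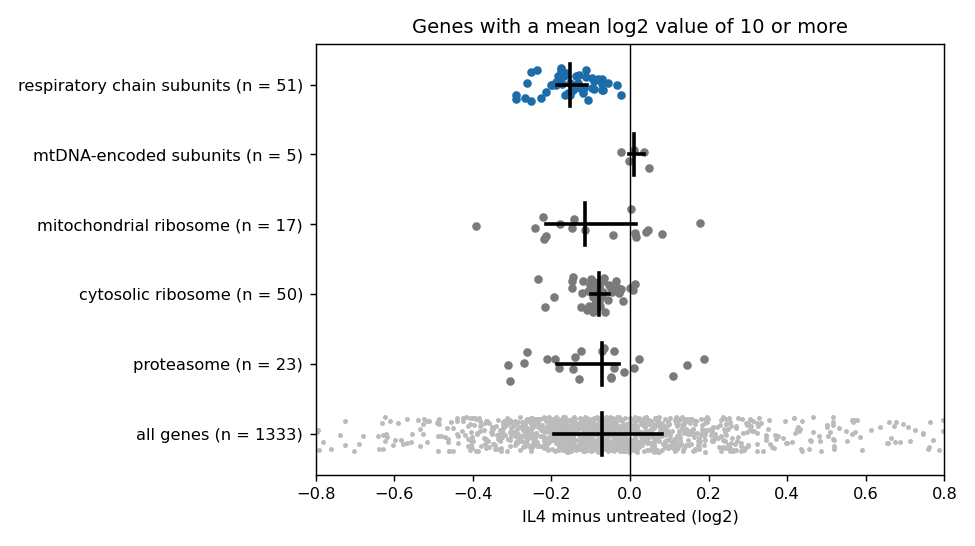
Difference (IL4 minus untreated, log2) of genes with a mean of 10 or more, for the members, the subunits encoded by mitochondrial DNA, other large complexes and all genes, with genes beyond 0.8 left out of view. Vertical bars are medians and horizontal bars the middle 50% of genes, and the medians are -0.15 for the members, 0.01 for the mitochondrial genes and -0.07 for all genes.

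Factors that assemble the complexes had 44 of 55 genes lower (80%), with a median of -0.09, 15 at least 1.2-fold lower and 1 higher. The background was 48.1% of all genes lower, with 17.6% at least 1.2-fold lower and 13.7% higher. Of genes with a mean between 8 and 9, 57.9% were lower. At least 1.5-fold lower were LYRM7, which matures the iron-sulfur subunit of complex III, with 6.80 with IL4 and 7.64 in untreated cells, and COX15, which makes heme A for complex IV, with 7.24 and 7.89. Both were moderately bright, and no member of complexes III or IV differed as much on the probe set that represented it.

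Among 28 regulators of mitochondrial biogenesis, 17 were lower (60.7%), and at 1.5-fold 2 were lower and 2 higher. The background was 48.1% of all genes lower, and 52.4% of those with a mean between 6 and 8. At 1.5-fold it was 4.39% lower and 3.21% higher. GABPA, whose protein binds the ETS letters and whose gene lies head to head with ATP5PF, had 7.20 with IL4 and 7.93 in untreated cells. The other factors whose letters were searched in the promoters differed less: NRF1 had 7.15 with IL4 and 6.90 without, and YY1 differed by -0.13. GABPB1 and GABPB2, the partner chains of GABPA, differed by 0.10 and -0.39. POLG2, a subunit of the mitochondrial DNA polymerase, had 6.39 and 7.07. MYC, a transcription factor that also acts on mitochondrial genes, had 10.81 with IL4 and 9.87 without, a difference of 0.94. PPRC1, a coactivator of the PGC-1 family known to respond quickly to growth signals, had 7.87 and 7.12.

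The list for the tricarboxylic acid cycle had 10 of 16 genes lower (62.5%) with a median of -0.05. For this and the next lists, the background was 48.1% of all genes lower. It was 60.5% of genes with a mean between 9 and 10. The tricarboxylic acid cycle list also holds the cytosolic enzymes IDH1, MDH1 and ACO1, and pyruvate carboxylase (PC). SUCLA2, a subunit of succinyl-CoA ligase, had 7.53 with IL4 and 8.14 without. Pyruvate entry and electron carriers had 13 of 22 lower (59.1%), which like the 62.5% above is close to the 60.5%. DLAT, a subunit of pyruvate dehydrogenase, had 8.90 with IL4 and 9.32 without, and PDK4, a kinase that inhibits that enzyme, had 3.77 and 4.07. Mitochondrial import had 22 of 31 lower, with GRPEL1, a partner of the import motor, higher at 9.75 with IL4 and 9.09 without. The list for mitochondrial antioxidant defence, which also holds catalase (CAT) and the mainly cytosolic SOD1, had 12 of 14 lower with a median of -0.15. SOD2, the manganese superoxide dismutase that cytokines are known to induce, ran the other way, with 8.86 with IL4 and 7.79 in untreated cells, 2.11-fold higher.

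NDUFA4, now named COXFA4 and placed in complex IV, no longer carries a symbol of the rule, and it and its relatives are given here after their values were seen. COXFA4 had 11.73 with IL4 and 11.84 in untreated cells, a difference of -0.11. COXFA4L3 (C15orf48), whose product is known to take the place of NDUFA4 in complex IV during inflammation, had 10.97 with IL4 and 9.30 without, a difference of 1.66, or 3.17-fold higher. COXFA4L2, known from hypoxia, was dim, with 5.27 and 4.88. Each of the 3 had a single probe set named for it alone, and no subunit gene among the 78 differed by as much as COXFA4L3.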

How the data were processed

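Gene expression was measured in H2228 cells with IL4 and without treatment, on 1 array each. The authors deposited a table of RMA values on the log2 scale for every probe set of both arrays (the version of RMA is not given in the sources used here). Scanner files were not analysed here, so background correction and normalization were not repeated.

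Gene names came from the array's annotation. Of 54675 probe sets, 41097 were assigned to 1 gene, and 41043 of these took their current symbol from the RefSeq table of GRCh38.p14. Each gene was represented by its single-gene probe set with the highest mean. The members and gene lists were chosen with earlier results of these data known. Left out by biotype were 2 pseudogenes and 3 long non-coding RNA genes whose symbols begin like those of members.

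Genes named in the text were core subunits, subunits with tissue isoforms, in each complex the 4 largest differences each way at or above the median level, and from each list the genes past 1.5-fold (or the 2 largest differences). Others are named as examples of their role. No test was made, since each condition has 1 array, and the number of arrays limits the precision. The alternatives were the mean over probe sets, leaving out probe sets that may bind several transcripts, loess (fraction 0.3), centring, quantile normalization, floors on the level (the median, 5.03, and the 75th percentile, 6.75) and current symbols, and 2 settings chosen after seeing the data: a mean of 10 or more, and leaving out tissue isoforms and the inhibitor. Python 3.11.15 was used with numpy 2.4.6, pandas 2.3.3, statsmodels 0.14.6 and matplotlib 3.10.9.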

Additional observations from a re-analysis of the deposited data

How the results depend on the processing

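Of 100 recomputed values for the 10 main results (medians of all members and of each complex, and counts at 1.2-fold and 1.5-fold), 90 stayed and 10 moved. A count stayed if it was within 1.5 times the main count. A median stayed if it changed by less than 0.25 divided by the square root of the number of members. The 0.25 is the standard deviation between first and second probe sets over all genes. Not all of the 100 values could move, so the 90 do not measure stability. Centring changed nothing because the median of all genes was 0, and current symbols gave the same 78 members. For complex II, with 3 members, medians from -0.20 to 0.02 all counted as stayed. The loess correction moved most: the median was -0.072 for all members, -0.064 for complex I and -0.11 for complex V, and 2 members in place of 6 were at least 1.2-fold lower. It took away 0.07 from the median member, since bright genes as a whole were lower with IL4. It also turned the sign of the complex II median (0.02) and of SDHC, CYC1 and ATP5F1D, each by a small amount. Without probe sets that may bind several transcripts, 65 members remained and 1, ATP5F1C (on a dim probe set, -0.60), was at least 1.5-fold lower, and UQCR10 was higher (0.07). The mean over probe sets turned the sign of ATP5F1E (0.02). No member was at least 1.2-fold higher (0) with either floor on the level, at a mean of 10 or more, or without tissue isoforms and the inhibitor, since COX8C was then left out, and 3 were at least 1.2-fold lower at a mean of 10 or more. No paired analysis was possible because each condition has 1 array, and for the same reason no replicate could be left out. Signal limits the dim isoforms of complex IV, whose values lie between 1.81 and 5.35, near or below the median of all probe sets.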

Other observations

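Genes whose symbols begin like those of members but that were left out gave dim values in both directions. Of the pseudogenes, ATP5MC2P1 had 5.22 with IL4 and 5.42 in untreated cells, and COX6A1P1 had 4.31 and 4.55. Of the long non-coding RNA genes, NDUFB2-AS1 had 6.09 with IL4 and 5.73 without, NDUFV2-AS1 had 4.32 and 4.01, and NDUFV1-DT had 6.26 and 6.55.

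Of 15 probe sets shared between a gene of the respiratory chain, or a readthrough or divergent transcript named after it, and another gene, 13 were lower with IL4. The 2 largest differences among them, -0.76 and -0.62, belonged to probe sets of KCTD14 and its readthrough transcript with NDUFC2, with 7.60 and 7.39 with IL4 and 8.35 and 8.01 in untreated cells. The probe set of NDUFC2 itself and that transcript had 11.48 with IL4 and 11.52 without.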
